A study of Mus musculus with 4 samples.

Results

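The 8 genes described here encode proteins of the perineuronal matrix and of the agrin signalling pair: neurocan (Ncan), brevican (Bcan), aggrecan (Acan), versican (Vcan), hyaluronan and proteoglycan link protein 1 (Hapln1), tenascin-R (Tnr), agrin (Agrn) and its receptor Lrp4. They were chosen by name from knowledge of this matrix and with the hippocampal methylation differences of these same libraries in view, Ncan and Lrp4 having been among the genes with many CpG sites at 0% in one library and 100% in the other. Hippocampal values for the genes are therefore a description and carry no test. The 8 genes, of 18264 curated genes with a measured site, held 979 of the 2226271 CpG sites with at least 5 reads in both hippocampal libraries, and 12 of the 9731 CpG rows listed for the frontal cortex.

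Bisulfite sequencing of a reduced, CpG-rich part of the genome was carried out on DNA of 2 brain regions of CD-1 mice, an outbred stock, in 4 libraries. Female wild-type offspring were studied at 8 weeks of age. Their mothers had carried a mini-osmotic pump, placed on gestation day 9, that delivered for 7 days either estriol (E3; 50 µl at 0.46 mg/ml in DMSO) or DMSO alone (CT), so that all 4 groups shared exposure to DMSO and the pump. The groups were frontal cortex E3, frontal cortex CT, hippocampus E3 and hippocampus CT, with 1 library each, and neither the labels nor the methods say how many mice a library held. With 1 library per group, a difference between E3 and CT cannot be told apart from a difference between individual mice or between libraries, and an outbred stock adds sequence differences between mice. The regions are bulk tissue, so a change within a cell type and a change in the share of that cell type cannot be told apart.

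Perineuronal nets are a condensed extracellular matrix around the cell bodies and proximal dendrites of certain neurons, above all fast-spiking interneurons. Chondroitin sulfate proteoglycans of the lectican family bind the hyaluronan backbone at one end, where link proteins stabilise them, and tenascin-R at the other. In cortex and hippocampus the mature net is known for restricting plasticity at the close of juvenile critical periods. Agrin is a secreted heparan sulfate proteoglycan that binds Lrp4, and at the neuromuscular junction this activates the kinase MuSK and gathers acetylcholine receptors. Methylation of cytosine at CpG is symmetrical on the strands in most cells, is low at active CpG-rich promoters and is high in most gene bodies.

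The genes lay on 7 chromosomes of the mm10 build. Those on the forward strand were Tnr (chromosome 1, 159523769 to 159924922), Lrp4 (chromosome 2, 91457531 to 91513901), Acan (chromosome 7, 79053226 to 79115099) and Hapln1 (chromosome 13, 89540636 to 89611832). Those on the reverse strand were Bcan (chromosome 3, 87987531 to 88000356), Agrn (chromosome 4, 156165290 to 156197488), Ncan (chromosome 8, 70093085 to 70120844) and Vcan (chromosome 13, 89655310 to 89742512). Each lectican gene has a link protein gene beside it, 2.22 kb away for Ncan and Hapln4, 21.4 kb for Bcan and Hapln2, 1.93 kb for Acan and Hapln3 and 43.5 kb for Vcan and Hapln1. A microRNA gene, Mir7066, overlaps Ncan.

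Stretches of reference sequence under clusters of called CpG sites show where the differences described below sit. A cluster is a run of 3 or more called sites of the same direction with gaps of at most 200 bases. Clusters were counted in the 8 genes only, so no share over all genes stands beside them. Capitals mark the CpGs called on at least 1 strand in that direction, and all stretches are read from the forward strand of mm10. The first is in the Ncan coding sequence at chr8:70111942-70112043, where 7 of 13 CpGs were called higher in E3.
Ncan coding exon, higher: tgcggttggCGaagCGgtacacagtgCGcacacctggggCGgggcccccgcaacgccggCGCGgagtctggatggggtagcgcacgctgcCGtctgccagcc
Another 3 come from Lrp4, in an intron at chr2:91489282-91489508 (higher, 5 of 8 CpGs), in a coding exon at chr2:91485799-91485840 (higher, 3 of 3) and in a coding exon at chr2:91476579-91476663 (lower, 4 of 4).
Lrp4 intron, higher: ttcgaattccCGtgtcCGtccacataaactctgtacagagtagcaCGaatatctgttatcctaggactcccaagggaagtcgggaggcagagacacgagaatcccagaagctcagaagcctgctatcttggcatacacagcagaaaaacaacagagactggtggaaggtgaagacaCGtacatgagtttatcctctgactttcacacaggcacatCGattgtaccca
Lrp4 coding exon, higher: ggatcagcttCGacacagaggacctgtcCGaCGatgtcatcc
Lrp4 coding exon, lower: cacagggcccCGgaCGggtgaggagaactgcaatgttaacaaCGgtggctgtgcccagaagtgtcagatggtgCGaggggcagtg
The last pair are Bcan stretches of lower methylation, upstream of the gene at chr3:88000757-88000847 (5 of 5 CpGs) and in a coding exon at chr3:87997066-87997365 (9 of 34).
Bcan upstream, lower: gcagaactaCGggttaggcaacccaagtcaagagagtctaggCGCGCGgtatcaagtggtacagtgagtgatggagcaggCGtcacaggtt
Bcan coding exon, lower: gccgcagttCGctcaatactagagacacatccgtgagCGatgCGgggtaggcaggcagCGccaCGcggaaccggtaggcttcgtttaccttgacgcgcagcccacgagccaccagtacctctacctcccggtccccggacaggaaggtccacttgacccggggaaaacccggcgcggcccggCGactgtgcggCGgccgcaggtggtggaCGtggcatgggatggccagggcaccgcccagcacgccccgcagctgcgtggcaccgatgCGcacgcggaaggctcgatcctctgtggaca
The Bcan upstream stretch holds neither enzyme site of the protocol, CCGG (MspI) or TCGA (TaqI), whereas the longer Bcan stretch holds 6 and 1. CCGG occurred once in the Ncan stretch and once in the Lrp4 stretch of lower methylation. TCGA occurred in the Lrp4 intron stretch at 2 places and in the short Lrp4 coding stretch at 1. An estrogen response element, spelled as GGTCA and TGACC 3 bases apart and searched on both strands, was found in none of the 6 stretches. These counts are to be read beside 2227 windows of the same length centred on measured CpGs. At 300 bases 82.2% of windows held CCGG and 55.5% held TCGA. At 91 bases, the length of the Bcan upstream stretch, the shares were 54.8% and 26.7%. At 42 bases, that of the short Lrp4 stretch, they were 31.9% and 17.3%. The response element was in 0.135% of windows of 300 bases and in 0% of those of 91 or 42. In the RefSeq promoters (mm10, 300 bases each) of the 7 members matched by symbol, all but Lrp4, the response element was also not found, against 0.07% of 32851 promoters with it.

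The hippocampal E3 library was deeper than the CT library at most sites. Member sites had a median of 26 reads in E3 and 9 in CT, against 27 and 9 over all CpG sites, and 53.8% of member sites had only 5 to 9 reads in CT. A site is named called when its methylated shares differed by at least 10 percentage points with an unadjusted p under 0.05 in a Fisher's exact test between these 2 libraries. By that rule 157 member sites, 16.0%, were called, with 84 higher in E3 (8.58%) and 73 lower (7.46%). Over all CpG sites tested the shares were 11.0% called, 6.18% higher and 4.83% lower, and since this contrast was used to choose the genes nothing is read from the gap. The same share among the 6 members without Ncan and Lrp4 was 14.7%, with 49 sites higher and 59 lower. Mean methylation over the member sites was 45.7% in E3 and 45.3% in CT, and the median difference was 0 points. Higher and lower sites were thus close in number over the 8 genes.

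**Figure D1:**
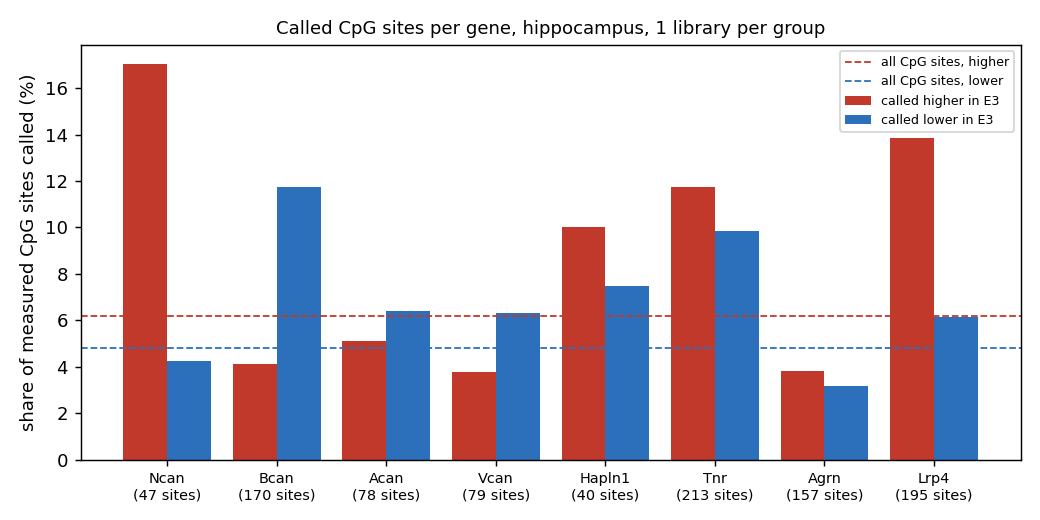
Share of measured hippocampal CpG sites called higher (red) or lower (blue) in E3 for each of the 8 genes, in percent of that gene's sites, with the shares over all CpG sites, 6.18% higher and 4.83% lower, for comparison. Tnr (21.6%), Ncan (21.3%) and Lrp4 had the largest shares called, with Ncan and Lrp4 mostly higher and Bcan mostly lower.

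How often a site was called varied with its mean level over the 2 libraries, which is partly built into the rule. A site with a mean under 10% or at 90% or more cannot differ widely. A site at 0% in one library and 100% in the other falls between 30% and 70%, and Ncan and Lrp4 were noticed by such sites. Of the 354 member sites whose mean level over the libraries was under 10%, 3 were called (0.847%, against 0.480% of all CpG sites in that range). Of the 257 sites at 90% or more none was called, against 0.755% of all sites. Of the 161 sites between 30% and 70%, 95 were called (59.0%, against 38.7% of all CpG sites in that range), with 61 higher and 34 lower. Sites between 10% and 30% were called at 26.3%, against 28.2% over all sites, and 20 of those 25 were lower. In CT, 63 of the 157 called member sites stood at exactly 0% or 100% (40.1%, against 37.9% of all called sites), and in E3 33 did (21.0%, against 20.3%).

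The counts also depended on depth. A read number need not be a number of separate fragments, which was not tested. In Bcan, for example, the site at 88000803 had 33 and 5 reads and its neighbour at 88000837 had 66 and 10. With at least 10 reads in both libraries 439 member sites remained, of which 32 were called higher and 48 lower, where 7.54% and 6.55% of all CpG sites were called. With at least 20 reads 106 remained, with 9 higher and 14 lower (9.15% and 9.21% of all sites). Lower sites thus outnumbered higher ones among the sites of these genes that passed these read minimums. The Bcan site at 88000837, called lower, passed the first with its 10 CT reads, while that at 88000803 with 5 did not. With reads thinned to 10 at each site 15 were called higher and 10 lower (2.69% and 2.05% of all sites), and with p-values adjusted by Benjamini-Hochberg over all sites there were 32 and 21 (2.04% and 1.31%).

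Among the lecticans, the large hyaluronan-binding proteoglycans, Ncan had the widest mean difference at the minimum of 5 reads. Neurocan is the lectican of the developing brain and is kept at a lower level in adult nets. Of its 47 measured sites 8 were called higher and 2 lower, and its mean level was 41.2% in E3 and 28.7% in CT, a difference of 12.5 points, with a median difference of 3.64 points. Among sites with at least 10 reads the mean difference was 4.81 points, smaller in size than the -7.04 points of Bcan, and 1 site was called higher. All 10 called sites lay in coding exons, which averaged 43.6% in E3 and 27.1% in CT over 29 sites. The 10 promoter sites, within 1 kb of the transcription start, were almost unmethylated, with 0.478% of 418 E3 reads methylated (0.131 to 1.73, 95% Wilson interval) and 1.80% of 111 CT reads (0.496 to 6.33).

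The Ncan difference came mostly from a run of 82 bases. Between positions 70111952 and 70112033 of chromosome 8, 7 sites on the reverse strand were 60.0% to 100% methylated in E3 and 0% in CT. Behind them stood 6 to 20 reads in E3 and 8 to 12 in CT, which by their matching read numbers fell into 2 sets of reads. At position 70111952 all 6 E3 reads were methylated (61.0 to 100%) and none of 12 CT reads (0 to 24.2%). The forward strand of these CpGs did not show the same: of the 4 measured there, none was called higher, 3 were not called and 1 was called lower, at 0% of 10 E3 reads and 80.0% of 10 CT reads (position 70111981). Within the second set of reads, the sites at 70112023 and 70112027 stood at 60.0% in E3 and 100% in CT while their neighbours at 70112002 and 70112033 stood at 60.0% and 0%. The CT reads of that set were therefore all methylated or all unmethylated at each of these CpGs, with the state changing from a CpG to its neighbour.

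Brevican is the most abundant lectican of the adult brain, made by both neurons and glia. Bcan had 20 sites called lower and 7 higher among 170, and averaged 13.6% in E3 and 15.5% in CT. Over its 76 promoter sites 2.08% of 2255 E3 reads (1.57 to 2.76) and 6.65% of 797 CT reads (5.12 to 8.60) were methylated, a difference of -4.57 points (95% interval -6.58 to -2.89). Of those sites 7 were called lower and none higher, while the promoters of all curated genes had 1.07% of sites called higher and 3.40% lower.

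A cluster 411 to 481 bases before the Bcan start held 5 of the 7. By matching read numbers these were counted as 3 sets of reads, so the promoter interval above, which takes reads as independent, is too narrow. Its sites were at 0% to 9.09% in E3 and 28.6% to 100% in CT, on 23 to 66 and 5 to 10 reads. The site at position 88000837 on the forward strand was at 0% of 66 reads in E3 (0 to 5.50%) and 100% of 10 reads in CT (72.2 to 100%). Its forward-strand neighbour at 88000803 had 33 and 5 reads. Whether the 66 and 10 reads are that many separate fragments was not tested. On the reverse strand of the same CpG the levels were 4.35% of 46 reads and 0% of 14 reads. None of the 5 sites had a called partner on the other strand.

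Inside Bcan the longest cluster of any member ran over 339 bases, from 87997076 to 87997414, with 10 sites, 9 in a coding exon and 1 in an intron, lower in E3 (0% to 37.5%) than in CT (30.8% to 76.9%). It stood in a region of 50 measured sites, of which the other 40 were not called, and the 9 partners measured on the other strand were not called. A shorter cluster at 87996499 to 87996553 had 3 sites at 19.0% to 39.3% in E3 and 77.8% to 89.3% in CT, and here 1 CpG, at 87996552, was called lower on both strands. Another cluster went the opposite way, with 4 intronic sites between 87989613 and 87989706 at 61.5% to 85.7% in E3 and 0% in CT on 6 CT reads each.

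Aggrecan, the lectican that marks the densest nets, was called about as often as sites in general. Of 78 sites in Acan 4 were called higher and 5 lower (11.5%), its mean was 62.3% in E3 and 63.9% in CT, and it had no cluster. The called site with the widest difference, at position 79088193 in a coding exon, was at 55.3% of 38 reads in E3 and 9.09% of 11 in CT. A site that was not called lay 4 bases away on the forward strand, at 79088197, and differed more and in the opposite direction, at 47.6% of 21 reads in E3 and 100% of 5 in CT. Its 18 promoter sites gave 4.90% of 898 reads in E3 and 2.88% of 486 in CT, a difference of 2.02 points whose interval (-0.241 to 4.01) included 0. Over 2 kb on each side of the start, with 28 sites, the difference in pooled reads was 23.6 points. Such a pooled value also depends on which sites were deepest in each library.

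Versican is a lectican of developing and perisynaptic matrix. Vcan had 3 sites called higher and 5 lower of 79 (10.1%), again without a cluster. In an intron, position 89726638 was at 0% of 7 reads in E3 and 100% of 5 in CT, and position 89683000 at 84.6% of 13 and 0% of 7. The deepest of its named sites, position 89705852, was at 88.1% of 84 reads in E3 (79.5 to 93.4%) and 28.6% of 14 in CT (11.7 to 54.6%). The 8 sites near the Vcan start were intermediate in level, at 29.9% of 455 E3 reads (25.9 to 34.3) and 45.0% of 160 CT reads (37.5 to 52.7), a difference of -15.1 points (-23.8 to -6.43) with 3 sites called lower. Taken over 2 kb on each side of the start, with 35 sites, the difference was -4.06 points.

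Link protein 1, which locks lecticans onto hyaluronan and without which nets form poorly, had 4 sites called higher and 3 lower of 40 measured in Hapln1 (17.5%), and none within 1 kb of its start. Position 89601628 in a coding exon, with equal depth in both libraries, was at 95.8% of 48 reads in E3 and 62.5% of 48 in CT. At position 89603386, on the reverse strand, 29.6% of 27 E3 reads and 100% of 9 CT reads were methylated, but the forward strand of that CpG was called in the opposite direction, at 71.9% of 57 and 50.0% of 52 reads.

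Tenascin-R, the trimer that crosslinks lecticans, was the longest gene at 401 kb and had the most called sites. Of 213 sites in Tnr 25 were called higher and 21 lower (21.6%), nearly balanced, and the mean was 59.1% in E3 and 59.4% in CT. Introns held 43 of the 46 called sites and 192 of the 213 measured. At position 159625058 all 11 E3 reads and 16.7% of 6 CT reads were methylated, and at 159843178 the levels were 14.3% of 14 and 87.5% of 8 reads. Its 12 promoter sites were at 3.19% of 439 reads in E3 and 0% of 143 reads in CT, where a count of 0 allows up to 2.62% by the Wilson interval.

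Tnr also held clusters with a CpG called alike on both strands. From 159585553 to 159585559, 3 sites were at 73.9% to 100% in E3 and 25% to 38.5% in CT. The first of them, at 100% of 70 and 25% of 8 reads, had an other strand at 92.0% of 50 and 96.0% of 25 reads, so it was not called there, while the neighbouring CpG at 159585558 was called higher on both strands. Clusters of 3 at 159678619 to 159678664 (65.0% to 66.7% in E3 and 0% of 5 reads in CT) and at 159697680 to 159697698 also each held 1 CpG called higher on both strands. The latter also held the CpG at 159697698, whose strands were called in opposite directions, by 45.7 points on the forward and -21.0 points on the reverse. A lower cluster of 4 sites at 159671065 to 159671217 had 0% to 22.2% in E3 and 40.0% to 71.4% in CT, on 5 to 10 CT reads. Of 14 sites measured in its span, 10 were not called. The 3 partners measured on the other strand were not called, at 2.33% to 13.6% in E3 and 0% to 8.33% in CT.

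Agrin was called least of the 8 genes. Of 157 sites in Agrn 6 were called higher and 5 lower (7.01%), and the mean was 57.9% in E3 and 59.6% in CT. Pooled by reads, which weights each site by its depth in each library, the direction turned, with a difference of 6.70 points. Its introns had means of 39.2% in E3 and 44.9% in CT but pooled shares of 37.0% and 31.2%. With at least 10 reads in both libraries 1 site was called higher and 0 lower of 56. In coding exons, a cluster of 3 sites between 156178470 and 156178626 was at 78.9% to 100% in E3 and 0% to 42.9% in CT, among 22 measured sites of which 19 were not called. At 156178478 the level was 84.2% of 19 reads in E3 and 0% of 6 in CT, whereas the other strand was at 100% of 12 and 100% of 7. In an intron, position 156190002 was at 26.7% of 15 reads in E3 and 100% of 8 in CT. Its 59 promoter sites, 3 of them called lower, gave 1.48% of 1488 reads in E3 and 2.08% of 769 in CT.

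Lrp4, the agrin receptor and a member of the low-density lipoprotein receptor family, had 27 sites called higher and 12 lower of 195. Its mean was 46.2% in E3 and 41.9% in CT, a difference of 4.35 points with a median of 0. Among sites with at least 10 reads the mean difference was 0.0765 points, with 9 sites called higher and 11 lower. Coding exons averaged 73.4% in E3 and 64.1% in CT, with 13 sites higher and 7 lower of 61, and introns had 14 higher and 3 lower of 110. The 71 promoter sites went slightly the other way, at 1.72% of 2205 reads in E3 and 3.19% of 1096 in CT, a difference of -1.47 points (-2.77 to -0.379) with 1 site called higher and 3 lower.

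The higher Lrp4 sites formed 5 clusters. At 91485809 to 91485830, 3 coding sites that shared their reads were at 100% of 16 reads in E3 (80.6 to 100%) and 0% of 9 in CT, and the 2 partners measured on the other strand were not called. At 91480447 to 91480482, 3 coding sites were at 80.0% to 100% and 0%, with 5 to 10 and 6 to 12 reads. At 91474249 to 91474404, 3 sites on 1 set of reads were at 66.7% to 71.8% of 39 reads in E3 and 0% to 14.3% of 7 in CT. The intronic cluster at 91489292 to 91489498 was the longest, with 6 sites at 89.6% to 100% of 48 to 57 reads in E3 and 37.5% to 75.0% of 8 in CT, and its CpG at 91489458 was called higher on both strands. The last, at 91492611 to 91492750, had 3 sites at 89.8% to 96.3% in E3 and 45.5% to 63.6% in CT. A single site at 91470728 was at 100% of 14 reads in E3 (78.5 to 100%) and 0% of 9 in CT (0 to 29.9%).

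In between lay the lower Lrp4 cluster, 5 coding sites from 91476589 to 91476653 at 12.5% to 57.7% in E3 and 75.6% to 100% in CT. It had 32 to 64 reads in E3 and 16 to 42 in CT, and its CpG at 91476652 was called lower on both strands. The CpGs at 91476593 and 91476621 were not called on the reverse strand, where they went the other way. Reverse-strand levels were 15.7% of 51 reads in E3 and 0% of 16 in CT at the first, and 19.6% of 51 and 0% of 15 at the second.

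**Figure D2:**
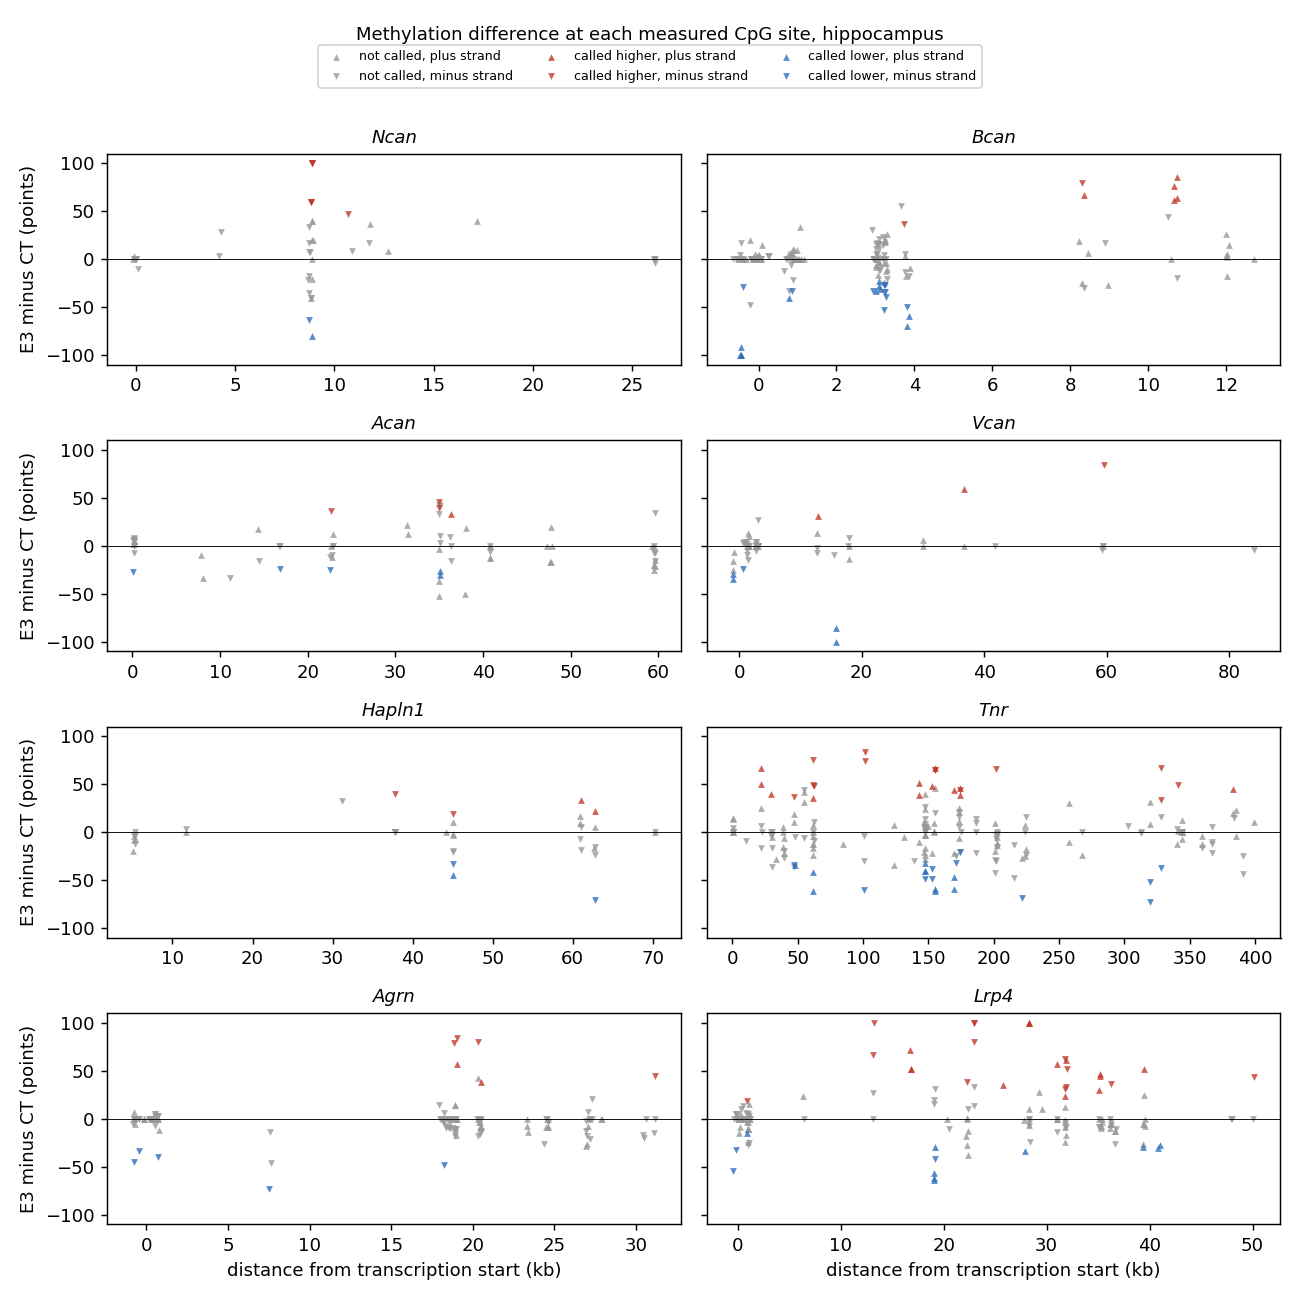
Difference in methylation (E3 minus CT, percentage points) at each of the 979 measured hippocampal CpG sites against distance from the transcription start in kb, by gene, with triangles pointing up for the forward strand and down for the reverse. Sites called higher (red) and lower (blue) in Ncan, Bcan and Lrp4 gather in short stretches. Measured sites gather too, with 50 in the 339 bases of the longest Bcan cluster, and clusters were not counted over other genes. Tnr, drawn along 401 kb, also holds clusters of called sites.

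Sites that went from 0% in CT to 100% in E3 numbered 4 in Ncan and 6 in Lrp4, which is 1.02% of member sites against 0.126% of all CpG sites, and this is the measure by which those genes had come to notice. The reverse, 100% in CT and 0% in E3, was seen at 3 sites of Bcan and 1 of Vcan (0.409% against 0.0764%).

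Promoters of the members differed from their gene bodies, as promoters did over all curated genes, where lower calls also outnumbered higher ones. Of 254 promoter sites, 204 were under 10% in both libraries. Called higher was 1 site (0.394%, against 1.07% of sites in the promoters of all curated genes). Called lower were 17 (6.69%, against 3.40%), and 7.09% were called in all, against 4.46%. Outside promoters 83 of 725 sites were called higher (11.4%) and 56 lower (7.72%), against 8.27% and 5.67% of such sites in all curated genes. Upstream of the starts, 83 sites averaged 5.82% in E3 and 13.9% in CT, and none was called higher. Of the 11 called lower there, 5 were the Bcan cluster, on 5 to 10 CT reads.

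**Figure D3:**
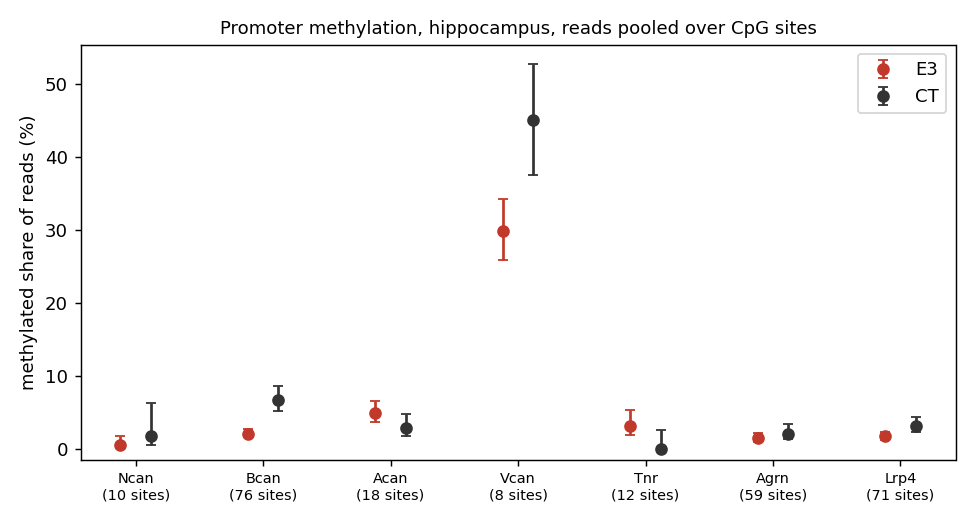
Methylated share of all reads over the CpG sites within 1 kb of each transcription start, in percent, in the hippocampus E3 and CT libraries. Bars are 95% Wilson intervals that cover counting error only and take reads as independent. Vcan (29.9% and 45.0%) and Bcan (2.08% and 6.65%) had intervals that did not overlap between libraries, and Hapln1 had no measured site there.

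Because CpG methylation is symmetrical, the strands of a CpG give a second reading of it from other DNA fragments of the same library. Both strands were measured at 231 member CpGs, and at 64 of them (27.7%, against 19.6% over the whole table) at least 1 strand was called. At 6 the strands were called in the same direction (9.38%, against 8.81% of such CpGs over the whole table), at 4 in opposite directions (6.25%, against 4.58%), and at 54 only 1 strand was called. The 6 were 3 CpGs of Tnr and 1 of Lrp4 called higher, and 1 each of Bcan and Lrp4 called lower. The 4 opposite ones lay in Ncan, Hapln1, Tnr and Lrp4.

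Neighbouring sites read by the same fragments are also not separate measurements. Successive measured sites on the same strand were taken as 1 set when they lay within 300 bases and had the same 2 read numbers. By that rule the 157 called sites came from 123 sets. In all 59 of them (37.6%) shared a set with another, against 22.7% of called sites over the whole table. The 10 called sites of Ncan came from 5 sets and the 39 of Lrp4 from 30, while the 7 of Hapln1 and the 11 of Agrn were each counted as a set. A site with other read numbers ends a set, so sites with equal read numbers can fall in different sets. The Agrn sites at 156178478 and 156178626, each with 19 and 6 reads, are such a pair. The Bcan sites at 88000803 (33 and 5 reads) and 88000837 (66 and 10) were also counted in different sets. Whether they share fragments was not tested, so the number of sets can exceed the number of separate measurements.

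**Figure D4:**
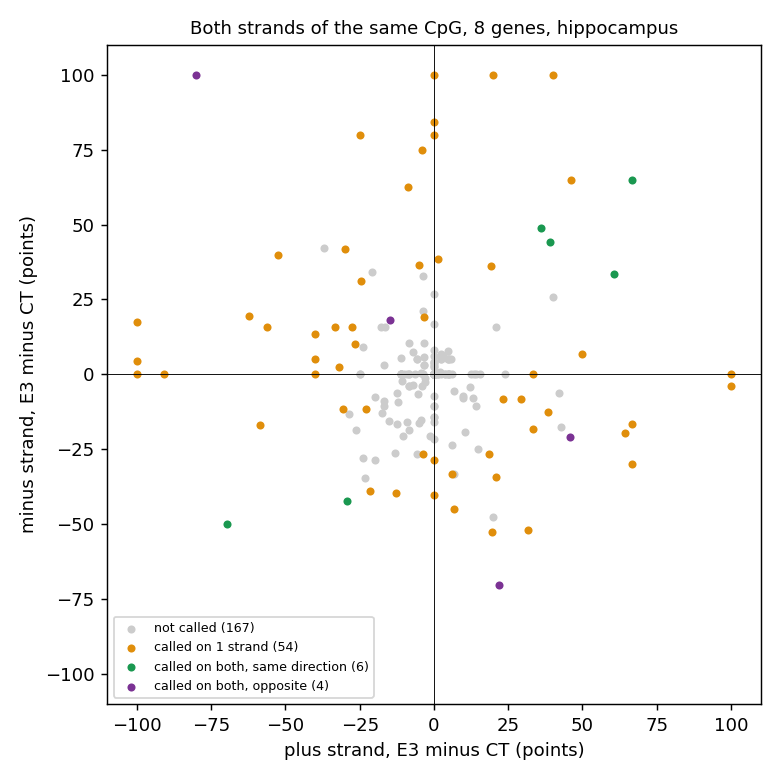
Difference in methylation (E3 minus CT, percentage points) on the reverse strand against the forward strand for the 231 member CpGs measured on both strands in the hippocampus. Of 64 CpGs called on a strand, 6 were called in the same direction on both (green), 4 in opposite directions (purple) and 54 on 1 strand alone (orange).

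In the frontal cortex the table lists only sites that the authors called, without read numbers, so a share of tested sites cannot be given and the depth is unknown. It held 12 CpG rows in 6 of the genes, 6 higher and 6 lower in E3, with differences of 13.1 to 43.7 points, and none in Ncan or Vcan. Differences of at least 25 points were found at 2 of the higher and 5 of the lower rows. Of all rows listed for this region, 3535 were higher and 6196 lower. All 12 positions and all 979 hippocampal sites fell on a CpG of the reference genome.

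Matrix genes had 9 of the rows. Tnr had 4 intronic rows, higher at 159585638 (60.7% in E3 and 21.2% in CT), 159671085 (21.6% and 8.43%) and 159671177 (21.5% and 2.27%), and lower at 159553748 (0% and 42.4%). Bcan was lower in E3 at position 88000526, 170 bases before its start (0% and 29.4%), and higher at 87987793 in a UTR exon (22.2% and 2.17%) and at 87987887 in a coding exon (19.0% and 2.22%). An intronic site of Acan at 79054413 was at 17.5% in E3 and 52.2% in CT, and one of Hapln1 at 89585718 at 25.7% and 0%. The agrin pair had the other 3. Agrn was lower at 156179248 in a coding exon (0% and 39.4%) and at 156198019, in a CpG island 531 bases before its start (2.94% and 21.6%), and Lrp4 was lower at 91492750 in an intron (48.6% and 92.3%).

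Of these 12 CpGs 6 were also measured in the hippocampus. The Agrn site at 156179248 went the same way there, at 26.7% of 30 reads in E3 (14.2 to 44.4) and 75.0% of 8 in CT (40.9 to 92.9). The Lrp4 site at 91492750 went the opposite way and was called higher, at 89.8% of 49 reads in E3 (78.2 to 95.6) and 45.5% of 33 in CT (29.8 to 62.0). With strands summed the other 4 were not called. Taken strand by strand, the Hapln1 site at 89585718 was called higher on the reverse strand (19.3% of 114 reads in E3 and 0% of 27 in CT), the direction of the frontal cortex. The Tnr site at 159671085 was called lower on the forward strand (0% of 25 and 40% of 5), the opposite direction. Its reverse strand was not called and leaned the way of the frontal cortex (13.6% of 22 and 0% of 12). With strands summed, the Tnr site at 159671177 was at 11.5% of 104 and 0% of 20 reads, also the direction of the frontal cortex. The Tnr site at 159553748 was at 0% of 129 and 0% of 31 reads. The Hapln1 site was at 16.0% of 213 and 7.55% of 53 reads.

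**Figure D5:**
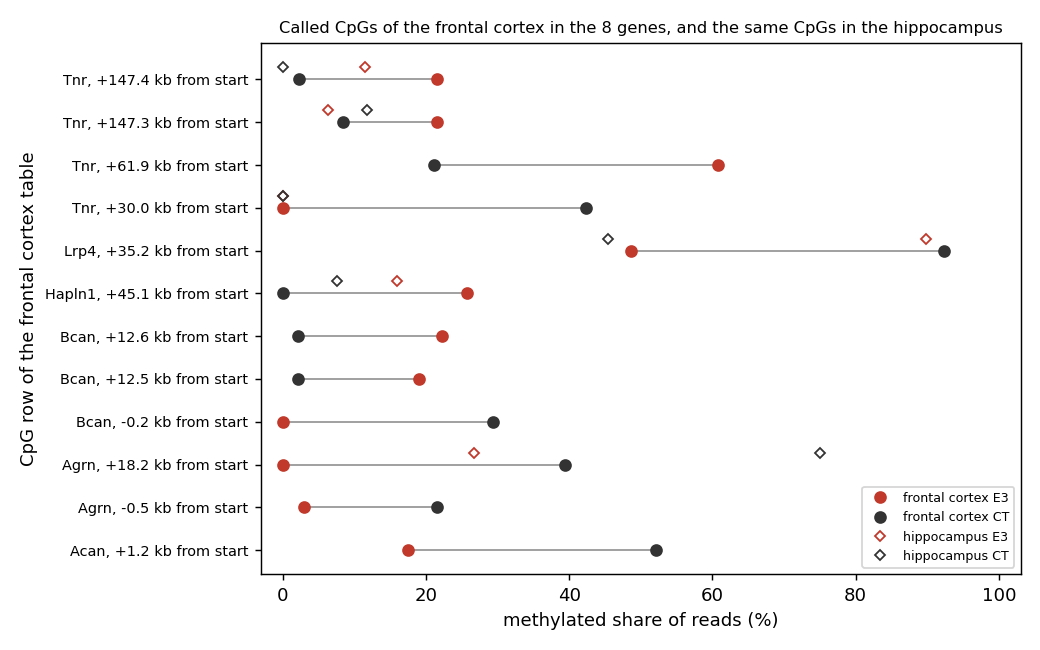
Methylation in percent at the 12 frontal cortex CpG rows of the 8 genes in the E3 and CT libraries. A line joins the frontal cortex values of each site, with 6 sites higher and 6 lower in E3, and the depth of these values is unknown. Open diamonds give the hippocampal levels, strands summed, of the 6 CpGs also measured there.

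Methylation outside CpG, which in brain is a mark of mature neurons, was low over the members and gave another reading of them. At CHG sites (H being any base but G), 2.02% of 66781 reads were methylated in E3 and 1.73% of 23693 in CT, and at CHH sites 2.44% of 170540 and 1.95% of 62903. Over the whole table the shares were 2.22% and 2.29% at CHG and 2.44% and 2.67% at CHH. Calls at single sites went mostly the other way, with 4 member sites higher and 47 lower of 2050 at CHG, and 18 higher and 115 lower of 5616 at CHH. The same holds over the whole table, where 0.254% of CHG sites were called higher and 3.17% lower, and 0.319% and 3.36% of CHH sites. The widest gap among the members was in Agrn, with 2.11% and 0.563% at CHG and 2.30% and 1.06% at CHH. Its single-site calls went the other way, with 0 higher and 1 lower at CHG and 0 and 7 at CHH. Hapln1 had a lower share in E3 at CHH, with 2.35% and 3.03%. Such shares are pooled by reads and so also depend on which sites were deepest in each library. The frontal cortex listed 4 CHH rows in the members and no CHG row. In Acan they were at 79100903 (4.76% in E3 and 36.4% in CT) and 79100944 (36.8% and 2.27%), in Lrp4 at 91492736 (0% and 19.0%) and in Ncan at 70109990 (0% and 25%). These shares include unconverted cytosine, whose level was not measured here.

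The wider pathway was described through 28 further genes of known role in nets or in agrin signalling, of which 27 had measured hippocampal sites. Of their 2528 sites 98 were called higher and 130 lower, 9.02% in all, against 11.0% of all CpG sites, with 8 genes having more higher and 16 more lower sites. Chst11, a chondroitin 4-O-sulfotransferase that modifies lectican side chains, had the most, with 22 higher and 39 lower of 426 sites. Cspg4, the proteoglycan NG2 of oligodendrocyte precursors, had 9 higher and 8 lower of 123, and Hapln4, the link protein partnered with brevican, 6 and 7 of 124. Mmp9, a protease that cleaves the matrix, had 3 and 9 of 84, and Sema3a, a guidance cue held by nets, 6 and 6 of 75. Adamts4, an aggrecanase, was chosen for mention after its values were seen and had 8 higher and 0 lower of 38 sites, with means of 43.4% and 26.4%. Among the genes of agrin signalling there were 5 sites called higher and 0 lower of 57 in Musk, the kinase downstream of Lrp4, 4 and 4 of 73 in Dok7, which activates that kinase, and 1 and 0 of 15 in Rapsn, which anchors acetylcholine receptors. The receptor subunits Chrna1 and Chrnb1 had 4 and 3 of 40 and 0 and 2 of 91. Prss12, a protease that cleaves agrin, had 2 and 6 of 108, and Dag1, dystroglycan, to which agrin also binds, 4 and 1 of 182. In the frontal cortex 8 of these genes had 1 row each, higher for Hapln2 (21.9% and 1.67%) and lower for the other 7, with the widest differences at Hapln3 (0% and 83.3%) and Cspg4 (0% and 80.0%).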

How the data were processed

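Genomic DNA was digested with TaqI and MspI, size-selected and bisulfite-converted (Methyl-MiniSeq), 1 library in each of 4 groups. Per the methods of the study, the authors trimmed reads with TrimGalore, aligned them to mm10 with Bismark and called methylation with MethylDackel. The authors deposited, for the hippocampus, the fraction of methylated reads (2 decimals) and the read count at each cytosine of each strand, and for the frontal cortex the methylated fraction at called sites only, without read counts. The authors' columns of differences, p-values and adjusted p-values were not used. No column of per-sample values lacked a sample (0 left unmapped).

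Methylated counts were rebuilt as fraction times reads, which can be off above 100 reads. Sites with 5 or more reads in both libraries were tested over the whole table with a 2-sided Fisher's exact test (SciPy 1.17.1, Python 3.11.15), which was tested on simulated data and compares libraries, not conditions. Genes ran from 1 kb before the outermost curated RefSeq start to the gene end. Positions are 1-based cytosines in mm10. Wilson intervals (95%) cover counting error only and take each read as separate. Reads are not independent molecules, so the intervals can be too narrow. The members, the 28 pathway genes and all rules were chosen with earlier results of these data known. Text names up to 4 called sites of a member with the widest difference, every cluster, every frontal cortex row, and the pathway genes with the most called sites (4 by rule, and a tie). Adamts4 and the agrin signalling genes of the list were added after their values were seen. Alternatives were other read minimums, differences, adjusted p-values, summed strands, thinning to 10 reads, and other gene and promoter limits.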

Additional observations from a re-analysis of the deposited data

Results flagged for a closer look

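The Lrp4 CpG at position 91492750 of chromosome 2 went in opposite directions in the brain regions. It was lower in E3 in the frontal cortex, by -43.7 points, and higher in E3 in the hippocampus, by 44.3 points. The difference between regions was not tested, since each had 1 library per condition.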

How the results depend on the processing

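The 84 higher and 73 lower hippocampal sites became 32 and 48 with at least 10 reads in both libraries, and 9 and 14 with at least 20 reads. The balance turned to lower sites there, and Ncan kept 1 and then 0 higher sites and Lrp4 9 and then 3. With p-values adjusted by Benjamini-Hochberg over all sites 32 and 21 were called, and with reads thinned to 10 a site 15 and 10. A minimum difference of 25 points, summed strands, gene bodies alone, deep sites left out, and predicted gene records (chosen after seeing the data) left both counts within 1.5 times. The mean difference of Lrp4 was 0.0765 points at 10 reads against 4.35, and that of Ncan 4.81 against 12.5. Pooled by reads, which weights sites by their depth in each library, that of Agrn changed sign, from -1.77 to 6.70. Wider promoters, 2 kb each side, moved Acan to 23.6 points and Vcan to -4.06. The predicted start of Bcan left 1 promoter site of 76, at 3.33 points. The Agrn promoter difference was 0.731 points at 10 reads, against -0.602. Of the 6 higher and 6 lower frontal cortex rows 2 and 5 passed 25 points. No paired analysis was possible because each group had 1 library, and for the same reason no replicate could be left out. CT depth, with a median of 9 reads at member sites, limits what any single site shows.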
